A study of Homo sapiens with 36 samples.

Results

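The aminoacyl-tRNA synthetases, the enzymes that load amino acids onto their tRNAs, were followed through 36 RNA-Seq libraries of melanoma cells. The 37 genes described were chosen by name: 19 encode cytosolic enzymes (symbols ending in 1, plus the FARSA and FARSB subunits), 16 encode mitochondrial enzymes (symbols ending in 2) and the remaining 2, AIMP1 and AIMP2, encode scaffold proteins. All 37 were found among the 60656 gene identifiers of the expression files, and all 37 passed the filter on low values in every comparison.

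Each synthetase recognizes one amino acid and the tRNAs that carry it, and the charged tRNAs feed the ribosome. Cytosol and mitochondria use separate sets of enzymes, all of them encoded in the nucleus, and GARS1 and KARS1 supply both compartments from a single gene. EPRS1 charges glutamate and proline tRNAs in a single protein. The products of EPRS1, IARS1, LARS1, MARS1, QARS1, RARS1 and KARS1 are held in a multisynthetase complex by AIMP1, AIMP2 and a further scaffold protein. Several cytosolic synthetase genes are known targets of the transcription factor ATF4, the effector of the amino acid response, and MYC is known to raise genes of protein synthesis. WARS1 is also an interferon-inducible gene.

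The libraries came from 3 BRAF-mutant lines, A375TR-NR2F1, 1205LuTR-NR2F1 and WM793TR-NR2F1, called A375, 1205Lu and WM793 here. All 3 lines carried the Tet repressor and a lentiviral NR2F1 cDNA, an orphan nuclear receptor, that is switched on by doxycycline (DOX). The 4 treatments were DMSO, DMSO + DOX, BRAFi + MEKi and BRAFi + MEKi + DOX, with 3 replicates each, which makes 12 groups. BRAFi was PLX4720 at 1 uM and MEKi was PD0325901 at 35 nM for 72 h, and DOX was used at 100 ng/mL. By the labels, only the DOX groups had it in the 24 h before the drugs, whereas the study's methods describe DOX at seeding without setting groups apart, so an early exposure of the groups without DOX is not settled by these sources and would change what each DOX effect measures. No library was made from cells given DOX without the NR2F1 cDNA, so DOX and NR2F1 cannot be told apart. A375 cells were grown in DMEM with serum and the other lines in a low-serum medium with insulin, so line and medium cannot be told apart. Replicates of the study's cell culture experiments were independent experiments.

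Every gene had 1 normalized expression value in each library, on a scale common to all 36. Their sums ran from 27027824 to 34621958, and an estimate from the commonest low value put the reads behind a library at 29700000 in the median, with 6600000 in the shallowest (WM793 DMSO replicate 1) and 60500000 in the deepest (A375 DMSO + DOX replicate 1). SOX10 (5684 to 24854), S100B (1100 to 60210) and CSPG4 (3467 to 37733) were present in every library. Among the pigment genes, MLANA and TYR reached at most 0.974 and 4.9, TYRP1 26.8 and PMEL 153. DCT reached 13703, and its mean went from 65.9 in A375 DMSO to 9306 under BRAFi + MEKi. In WM793 the DCT mean went from 13.4 to 3972 and in 1205Lu from 1.33 to 235. Of the markers of other cell types, those of leukocytes, epithelium, endothelium and liver reached at most 91.0, and the fibroblast markers PDGFRA, DCN and LUM reached 7295, 286 and 906. NR2F1 rose with DOX in all 3 lines under BRAFi + MEKi, by 3.33 in 1205Lu, 4.99 in WM793 and 4.14 in A375 on the log2 scale (limma adjusted p = 0.00491, 0.00383 and 6.73e-06). The WM793 call held in 5 of the 6 fits that left out a library (highest limma adjusted p = 0.0554). Under DMSO NR2F1 rose by 6.39 in WM793 and 5.49 in A375, while in 1205Lu its log2 difference of 1.93 did not pass the threshold (limma adjusted p = 0.412), but did with a block for the replicate number (0.0202). The 1205Lu libraries did not overlap, with 6273, 2182 and 2327 under DMSO and 20699, 9155 and 9270 under DMSO + DOX.

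The cytosolic genes were expressed several-fold above the mitochondrial ones. Levels between genes were compared per kilobase of merged exons in the DMSO libraries. In 1205Lu the cytosolic median was 962 (174 to 4428) against a mitochondrial median of 142 (38.5 to 1652). WM793 gave 1006 against 189, and A375 gave 1036 against 136. Per kilobase of the longest transcript the medians were 1691 and 204 in 1205Lu, 1716 and 256 in WM793, and 2096 and 199 in A375. TARS1, the threonine enzyme, had the highest level in 1205Lu (4428), EPRS1 in WM793 (2323) and FARSA, the alpha subunit of the phenylalanine enzyme, in A375 (4475). Per kilobase of the longest transcript, WARS1 took the place of EPRS1 in WM793.

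**Figure D1:**
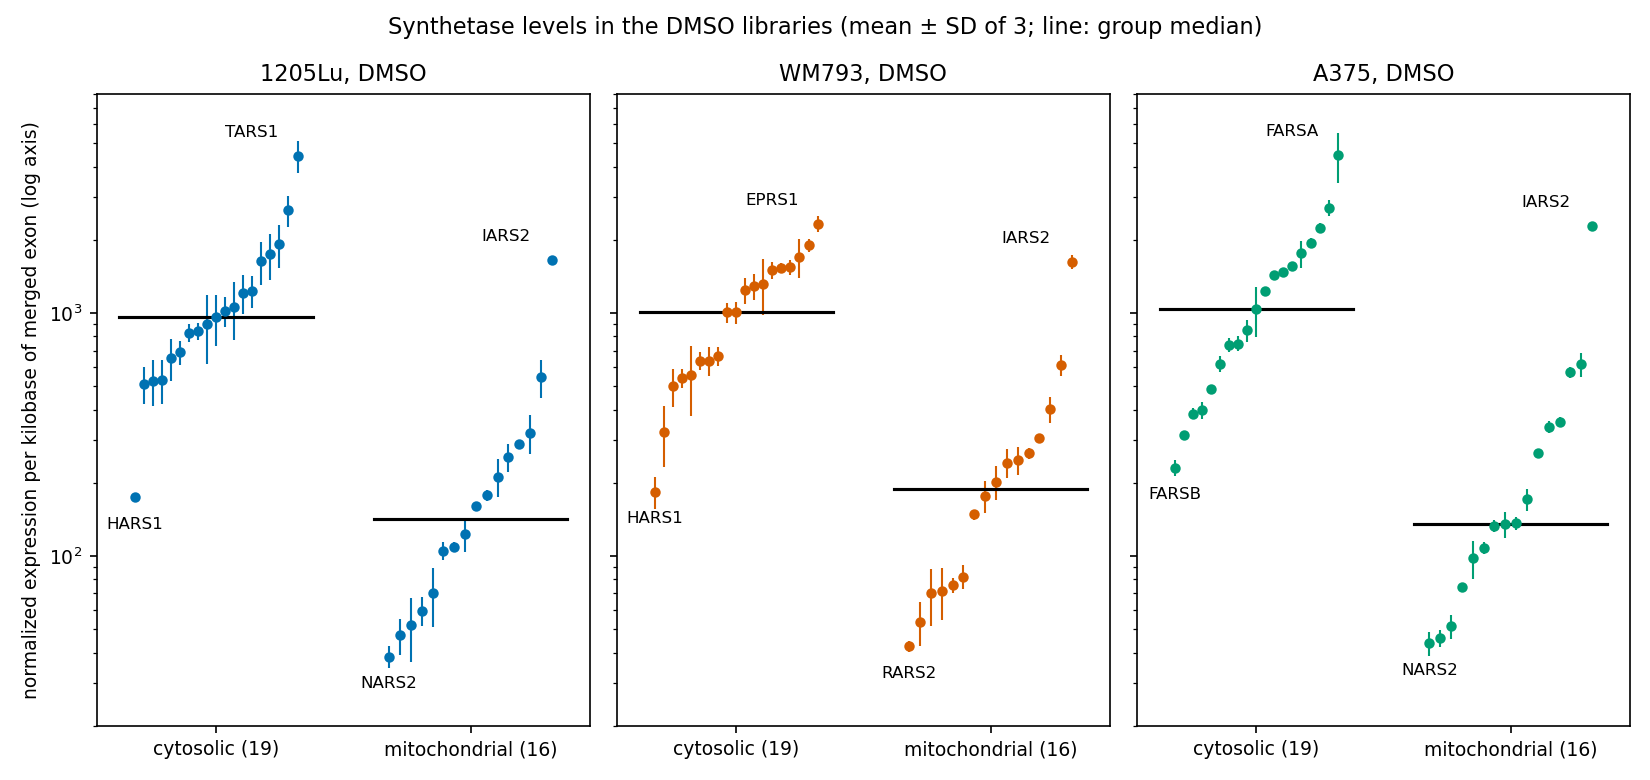
Normalized expression per kilobase of merged exon on a log axis for the 19 cytosolic and 16 mitochondrial genes in the DMSO libraries of each line (points: mean of 3 libraries, bars: SD, horizontal lines: group medians). The cytosolic medians of 962, 1006 and 1036 stand above the mitochondrial medians of 142, 189 and 136, and IARS2 is the highest mitochondrial gene in each line.

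IARS2, the mitochondrial isoleucine enzyme, was the exception among the mitochondrial genes, with 1652, 1623 and 2276 per kilobase in 1205Lu, WM793 and A375. Its cytosolic partner IARS1 stood at 0.395, 0.391 and 0.214 of the IARS2 level, or 0.874, 0.866 and 0.473 by the longest transcript. Across 17 pairs that serve the same amino acid, the cytosolic gene was higher in 14 pairs in 1205Lu and in 15 in each of WM793 and A375, and by the longest transcript in 16, 16 and 15. The widest pair in 1205Lu was NARS1 against NARS2, at 45.2 to 1 per kilobase of merged exons, or EPRS1 against PARS2, at 48.7 to 1, by the longest transcript, where NARS1 to NARS2 was 22.0. HARS1 and HARS2, the histidine pair, were nearly level: HARS1 stood at 0.602, 0.598 and 0.551 of HARS2 per kilobase of merged exons and at 1.04, 1.03 and 0.947 by the longest transcript, so their order turned with the length used in 1205Lu and WM793 and not in A375.

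The lines also differed in these genes without drug. Between 1205Lu and WM793, 8 members were higher and 12 lower in 1205Lu, where 30.7% of all 26779 genes tested differed. Between 1205Lu and A375, 9 were higher and 13 lower in 1205Lu (46.8% of all genes), and between WM793 and A375, 10 were higher and 13 lower in WM793 (47.5%). The median log2 difference over the members was -0.15, 0.02 and -0.14, and over all genes 0.00, -0.12 and -0.18. AIMP2, GARS1, KARS1, MARS2, PARS2, QARS1 and YARS2 differed in all 3 pairs of lines (10.9% of all genes), and EPRS1, FARS2, LARS1, NARS1, NARS2 and RARS2 in none (9919 of 26779 genes). Of the former, GARS1, PARS2 and KARS1 between 1205Lu and WM793 (limma adjusted p = 0.0379, 0.0263 and 0.0388) lost their call when a single DMSO library was left out. GARS1 was lost without 1205Lu replicate 2 or 3 or WM793 replicate 1 or 3 (0.103 to 0.201), PARS2 without replicate 1 or 3 of either line (0.0642 to 0.11) and KARS1 without 1205Lu replicate 1 or WM793 replicate 2 (0.334 and 0.165). QARS1 between WM793 and A375 (0.0196) was lost without WM793 replicate 1 or A375 replicate 2 (0.0706 and 0.0747).

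The subunits of the phenylalanine enzyme went opposite ways between lines. FARSA read 12219, 7984 and 12471 in the A375 DMSO libraries, against 2958, 2022 and 1605 in 1205Lu and 2647, 2821 and 4160 in WM793. FARSB, the beta subunit, read 1568, 1680 and 1435 in A375, against 2784, 4278 and 3611 in 1205Lu and 4208, 4974 and 4348 in WM793. Neither subunit overlapped between A375 and the other lines, with FARSA highest and FARSB lowest in A375. The ratio of FARSA to FARSB per kilobase of merged exon was thus 21.6, 13.2 and 24.1 in A375, against 1.23 to 2.95 in 1205Lu and 1.58 to 2.66 in WM793. FARSA was lower in 1205Lu than in A375 by a log2 difference of -2.33 ± 0.26 (SE) and FARSB higher by 1.17 ± 0.15 (limma adjusted p = 9.69e-09 and 8.85e-08). Exons of FARSA overlap an antisense gene, FARSA-AS1, and the library kit does not mark strand, so their reads cannot be told apart.

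YARS2, the mitochondrial tyrosine enzyme, read 1111, 1399 and 991 in 1205Lu DMSO, 443, 340 and 349 in WM793 and 802, 748 and 752 in A375. The order 1205Lu, A375, WM793 held for every library, and the log2 difference of 1205Lu minus WM793 was 1.62 ± 0.14 (SE) with a limma adjusted p of 2.07e-10. MARS2, the mitochondrial methionine enzyme, read 1346, 1054 and 1243 in WM793, 773, 562 and 590 in 1205Lu and 345, 329 and 308 in A375. Its libraries also separated the 3 lines without overlap, and WM793 minus A375 was 1.88 ± 0.17 on the log2 scale (limma adjusted p = 1.69e-10). TARS1 (21482, 15954 and 19117) and CARS1, the cysteine enzyme (7724, 8486 and 9125), were higher in every 1205Lu DMSO library than in any DMSO library of the other lines. QARS1, the glutamine enzyme, was lower in every 1205Lu DMSO library (3700, 3704 and 4283) than in WM793 or A375, where it read from 6874 to 9604.

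Promoter sequences of 300 bases, 250 before and 50 after each start site, were matched from RefSeq (GRCh38.p14) for 32 of the 37 members. LARS1, VARS1, YARS1, AARS2 and VARS2 had no entry. They were searched on both strands for TGATGNAA (TTNCATCA when read on the other strand), the letters of the element to which ATF4 binds with C/EBP partners. These letters stand in 3.62% of all 35116 promoters, in 6 of 16 cytosolic promoters, in 1 of 14 mitochondrial promoters and in neither scaffold promoter. CACGTG, the E-box bound by MYC, stands in 7.26% of all promoters and in 4 of the 32 member promoters. A match of letters is a description and does not show binding. The 7 matches are shown because they group the members whose responses are compared with ATF4 targets, each on the strand of its gene with 10 bases on either side and the matched letters in capitals.
AARS1: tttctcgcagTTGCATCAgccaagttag
CARS1: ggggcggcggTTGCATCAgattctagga
IARS1: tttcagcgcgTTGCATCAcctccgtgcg
MARS1: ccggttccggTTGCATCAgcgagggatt
NARS1: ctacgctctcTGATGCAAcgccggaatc
TARS1: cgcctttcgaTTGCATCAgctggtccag
YARS2: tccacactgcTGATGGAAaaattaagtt

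In GRCh38.p14 these stretches lie at chr16:70289676-70289703 (AARS1, minus strand), chr11:3057408-3057435 (CARS1, minus), chr9:92293693-92293720 (IARS1, minus), chr12:57488054-57488081 (MARS1, plus), chr18:57621805-57621832 (NARS1, minus), chr5:33440957-33440984 (TARS1, plus) and chr12:32756077-32756104 (YARS2, minus). Counted from the start site, with its first base as 1 and no base 0, the matches begin at -187 in AARS1, -2 in CARS1, -13 in IARS1, -4 in MARS1, 15 in NARS1, 3 in TARS1 and -197 in YARS2. The 6 cytosolic matches thus share the letters TTGCATCA or their reverse TGATGCAA, while the YARS2 match has a different base at the N.

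BRAFi + MEKi lowered most synthetase transcripts in 1205Lu and WM793, and 13 of 37 were called lower in A375. This comparison addresses how the genes respond to 72 h of BRAF and MEK inhibition without DOX. A gene was called when its limma p, adjusted over all genes tested in the line by the Benjamini-Hochberg method, was below 0.05, and fold changes are on the log2(value + 1) scale. In 1205Lu, 23 of 37 members were lower and 2 higher, where 14.4% of all genes were lower and 16.5% higher. In WM793, 24 were lower and 4 higher (all genes: 16.9% and 20.4%), and in A375, 13 were lower and 2 higher (19.0% and 20.5%). The median log2 fold change over the members was -0.68, -0.59 and -0.29 in 1205Lu, WM793 and A375, while over all genes it was 0.11, 0.15 and 0.06.

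Since the libraries are bulk RNA, a lower level per cell and a changed mix of cell states cannot be told apart. When libraries were rescaled to the same total, the median over all genes moved to 0.16, 0.33 and 0.20. The members called lower and higher then numbered 22 and 2 in 1205Lu (12.9% and 17.9% of all genes), 19 and 6 in WM793 (12.2% and 27.3%) and 8 and 2 in A375 (15.4% and 25.6%). The share of called genes that were higher moved from 53.4% to 58.2% in 1205Lu, from 54.8% to 69.1% in WM793 and from 52.0% to 62.4% in A375.

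In each of the 3 lines, 10 of 37 members were called lower, against 6.07% of the 19420 genes tested in all 3. They were the cytosolic FARSA, FARSB, KARS1, LARS1 and VARS1 and the mitochondrial AARS2, EARS2, IARS2, SARS2 and YARS2. AARS2, the mitochondrial alanine enzyme, lost its call in 1205Lu (limma adjusted p = 0.019) without DMSO replicate 3 or BRAFi + MEKi replicate 1 (0.0615 and 0.0681), and in A375 (0.0255) without replicate 1 or 2 of either group (0.0656 to 0.0936). FARS2, HARS2 and WARS2 were called in no line. Values of all 3 libraries of a BRAFi + MEKi group lay below all 3 of the DMSO group for 26, 24 and 21 members in 1205Lu, WM793 and A375, where 19.3%, 19.9% and 24.7% of all genes did so, and above them for 3, 4 and 2 members (24.1%, 25.5% and 27.5% of all genes).

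**Figure D2:**
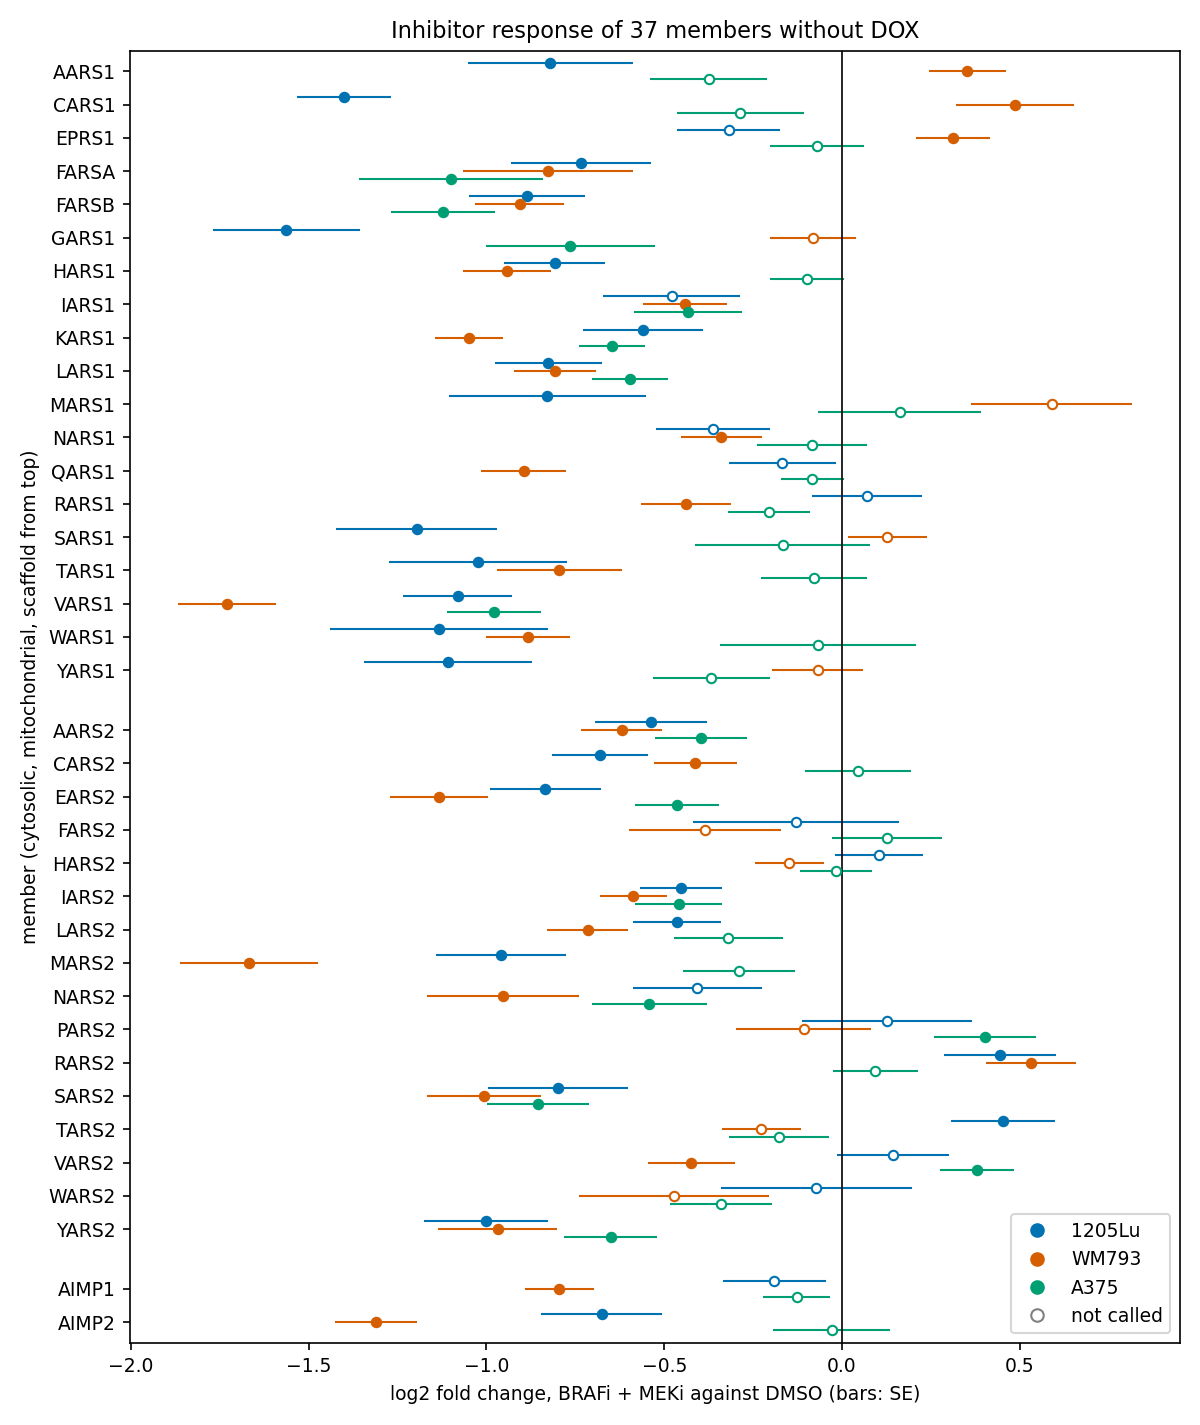
Log2 fold change of BRAFi + MEKi against DMSO without DOX for each of the 37 members (points: limma estimates from groups of 3 libraries, bars: SE, filled points: adjusted p below 0.05, colors: lines). VARS1, at -1.08, -1.73 and -0.98, is low in all 3 lines, whereas CARS1 lies at -1.40 in 1205Lu and at 0.49 in WM793.

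The 6 genes plotted by library lie apart in the genome. In GENCODE 44 on GRCh38, VARS1 (ENSG00000204394.13) spans chr6:31777518-31795752 on the minus strand with 24 merged exons, GARS1 (ENSG00000106105.15) chr7:30580533-30634033 on the plus strand with 17, and AARS1 (ENSG00000090861.17) chr16:70251983-70289707 on the minus strand with 21. CARS1 (ENSG00000110619.18) spans chr11:3000922-3057613 on the minus strand with 20 merged exons, YARS2 (ENSG00000139131.13) chr12:32727490-32755897 on the minus strand with 6, and MARS2 (ENSG00000247626.5) chr2:197705369-197708395 on the plus strand with 1. Exons of AARS1, CARS1, GARS1 and YARS2 overlap a gene on the opposite strand (DDX19B, CARS1-AS1 and GARS1-DT among them), while those of VARS1 and MARS2 overlap none.

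Among the cytosolic enzymes, 14 of 19 fell in 1205Lu and none rose, with a median log2 fold change of -0.83. In WM793 12 fell and 3 rose (median -0.44), and in A375 7 fell and none rose (median -0.29). VARS1, the valine enzyme, fell in each line. It read 3554, 4156 and 4467 in 1205Lu DMSO and 1548, 2308 and 1947 under BRAFi + MEKi. In WM793 it went from 6756, 8327 and 6762 to 2666, 1962 and 1991, and in A375 from 4523, 4631 and 4034 to 2282, 2193 and 2208. The groups did not overlap in any line, and the log2 fold changes were -1.08 ± 0.15, -1.73 ± 0.14 and -0.98 ± 0.13 (SE, limma adjusted p = 0.000161, 6.4e-07 and 5.2e-05).

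Both subunits of the phenylalanine enzyme fell in the 3 lines. FARSB went from 1568, 1680 and 1435 to 700, 730 and 715 in A375, a log2 fold change of -1.12 ± 0.15 (limma adjusted p = 3.88e-05), and by -0.89 ± 0.16 and -0.91 ± 0.12 in 1205Lu and WM793. FARSA went from 12219, 7984 and 12471 to 4509, 4746 and 5777 in A375 (-1.10 ± 0.26, limma adjusted p = 0.00388). Every treated A375 library was below every DMSO library for both subunits. The FARSA changes of -0.73 in 1205Lu and -0.83 in WM793 lost their call when 1205Lu BRAFi + MEKi replicate 3 was left out (adjusted p = 0.0545), and without WM793 DMSO replicate 3 or BRAFi + MEKi replicate 1 (0.067 and 0.0678). KARS1, the lysine enzyme of both compartments, read 5790, 6664 and 5820 in WM793 DMSO and 3020, 2749 and 3043 under BRAFi + MEKi, and 9309, 9315 and 8631 against 5697, 5695 and 6006 in A375. Its log2 fold changes of -1.05 ± 0.10 and -0.65 ± 0.09 (limma adjusted p = 1.98e-06 and 9.04e-05) held whichever library was left out, while that of -0.56 ± 0.17 in 1205Lu (0.0223) was lost without DMSO replicate 2 or 3 or BRAFi + MEKi replicate 1 or 3 (0.0687 to 0.0891).

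The deepest falls in 1205Lu were in a different set of cytosolic genes. GARS1, the glycine enzyme, read 12470, 20294 and 17359 under DMSO and 4949, 6125 and 5620 under BRAFi + MEKi, a log2 fold change of -1.56 ± 0.21 (SE, limma adjusted p = 8.78e-05). CARS1 read 7724, 8486 and 9125 against 2704, 3458 and 3473 (-1.40 ± 0.13, limma adjusted p = 6.47e-06). SARS1, the serine enzyme, read 5663, 8197 and 8266 against 3520, 3205 and 2829 (-1.20 ± 0.23, limma adjusted p = 0.00128). The groups were separate for all 3 genes. YARS1, the tyrosine enzyme, read 3967, 5724 and 5858 against 2381, 2408 and 2314 (-1.11 ± 0.24, limma adjusted p = 0.00287). WARS1, the tryptophan enzyme, read 7669, 6731 and 9044 against 5992, 2726 and 2701 (-1.13 ± 0.31, limma adjusted p = 0.0123). One treated WARS1 library was close to the controls, and its call was lost without DMSO replicate 3 or BRAFi + MEKi replicate 2 or 3 (0.0516 to 0.0629).

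In WM793 these genes were not lower, apart from WARS1. GARS1 read 10246, 12775 and 10110 under DMSO and 11576, 9480 and 10178 under BRAFi + MEKi, overlapping groups with a log2 fold change of -0.08 ± 0.12 (limma adjusted p = 0.632). YARS1 (-0.07 ± 0.13) and SARS1 (0.13 ± 0.11) were not called either. AARS1, the alanine enzyme, rose from 9268, 11277 and 10360 to 14553, 11601 and 13352, CARS1 from 2248, 4033 and 3450 to 4747, 4207 and 4314, and EPRS1 from 11857, 13418 and 11826 to 16609, 13456 and 16120. The groups were separate in the 3 cases, by a narrow margin, and the log2 fold changes were 0.35 ± 0.11, 0.49 ± 0.17 and 0.31 ± 0.10 (limma adjusted p = 0.021, 0.035 and 0.0306). Each rise was lost when single libraries were left out: without WM793 DMSO replicate 1, the shallowest library, the adjusted p was 0.0801, 0.123 and 0.0803. AARS1 was also lost without BRAFi + MEKi replicate 1 or 3 (0.0774 and 0.0615), CARS1 without any of the 3 BRAFi + MEKi replicates (0.0598 to 0.0988), and EPRS1 without DMSO replicate 3 or BRAFi + MEKi replicate 1 or 3 (0.0873 to 0.102). In A375, GARS1 went from 6671, 6358 and 7046 to 4054, 3940 and 3816 without overlap, a log2 fold change of -0.76 ± 0.24 (limma adjusted p = 0.0195), which was lost without DMSO replicate 3 or BRAFi + MEKi replicate 2 or 3 (0.0513 to 0.059).

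Of the 7 enzymes held in the multisynthetase complex, 3 fell in 1205Lu, 5 in WM793 and 3 in A375, with median log2 fold changes of -0.48, -0.44 and -0.21. Of the 12 cytosolic genes outside it, 11, 7 and 4 fell, with medians of -1.05, -0.57 and -0.33. Of all genes tested, 3191 of 22144 fell in 1205Lu and 3724 of 22074 in WM793, with the A375 share given above. The difference between members inside and outside the complex was not tested. QARS1 fell in WM793, from 6874, 7588 and 7209 to 4114, 3785 and 3756 (-0.90 ± 0.12, limma adjusted p = 5.5e-05), and was not called in 1205Lu (-0.17 ± 0.15) or A375 (-0.08 ± 0.09). The scaffold AIMP2 fell in WM793 from 3316, 3028 and 3095 to 1269, 1273 and 1258, without overlap (-1.31 ± 0.12, limma adjusted p = 1.43e-06), and by 0.68 in 1205Lu, whereas in A375 it stood at -0.03 ± 0.16. AIMP1, the other scaffold, fell by 0.80 in WM793 alone of the 3 lines, with -0.19 and -0.13 in 1205Lu and A375, neither of them called.

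Among the mitochondrial enzymes, 8 of 16 fell and 2 rose in 1205Lu (median log2 fold change -0.43), 10 fell and 1 rose in WM793 (-0.53), and 6 fell and 2 rose in A375 (-0.30). MARS2 read 1346, 1054 and 1243 in WM793 DMSO and 512, 364 and 293 under BRAFi + MEKi, a log2 fold change of -1.67 ± 0.19 (limma adjusted p = 1.59e-05). EARS2, the mitochondrial glutamate enzyme, read 1955, 1544 and 1576 against 722, 718 and 867 in the same line (-1.13 ± 0.14, limma adjusted p = 2.26e-05). Both were separate between groups and both fell in 1205Lu too, by 0.96 and 0.83. SARS2, the mitochondrial serine enzyme, read 655, 842 and 806 against 350, 447 and 349 in WM793 and 1121, 997 and 1039 against 542, 603 and 599 in A375 (-1.01 ± 0.16 and -0.85 ± 0.14, limma adjusted p = 0.000231 and 0.000311). YARS2 read 1111, 1399 and 991 against 573, 493 and 678 in 1205Lu and 802, 748 and 752 against 489, 443 and 538 in A375 (-1.001 ± 0.17 and -0.65 ± 0.13, limma adjusted p = 0.000717 and 0.00128). The YARS2 log2 fold change in WM793 was -0.97, and no library left out ended any of these YARS2, SARS2, MARS2 or EARS2 calls.

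The few rises among mitochondrial genes were small. RARS2, the arginine enzyme, rose in WM793 from 725, 790 and 726 to 1193, 984 and 1071 (0.53 ± 0.13, limma adjusted p = 0.00459), and VARS2, the valine enzyme, rose in A375 from 908, 861 and 815 to 1091, 1172 and 1099 (0.38 ± 0.10, limma adjusted p = 0.00981). Both rises held whichever library was left out. TARS2, the threonine enzyme, rose in 1205Lu from 1017, 1414 and 1438 to 1677, 1737 and 1824 (0.45 ± 0.14, limma adjusted p = 0.0294), which was lost without DMSO replicate 1 or BRAFi + MEKi replicate 2 or 3 (0.0662 to 0.119). RARS2 in 1205Lu (0.44 ± 0.16) and PARS2, the proline enzyme, in A375 (0.40 ± 0.14) were each called in only 1 of the 6 fits that left out a library. Of the falls, 17 of 23 in 1205Lu, 19 of 24 in WM793 and 9 of 13 in A375 were called in all 6 such fits.

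HARS1 and HARS2 lie head to head on chromosome 5, with RefSeq start sites at 140691370 on the minus strand and 140691455 on the plus strand and 84 bases between them (59.5% G or C). HARS1, the cytosolic enzyme, read 2447, 2555 and 2387 against 1574, 1410 and 1254 in 1205Lu and 3032, 2471 and 2276 against 1482, 1284 and 1259 in WM793. HARS2, the mitochondrial enzyme, read 1074, 1089 and 1060 against 1218, 1136 and 1115 in 1205Lu and 1136, 1111 and 1169 against 1026, 1019 and 1037 in WM793. HARS1 fell in both lines, by 0.81 ± 0.14 and 0.94 ± 0.12 (limma adjusted p = 0.000753 and 4.77e-05), whereas the HARS2 changes of 0.10 ± 0.12 and -0.15 ± 0.10 were not called. In A375 neither was called, with -0.10 ± 0.10 for HARS1 and -0.02 ± 0.10 for HARS2. Exons of both genes overlap on opposite strands, so some of their reads cannot be told apart.

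As sums over each group of genes, the cytosolic level was 57.1%, 80.3% and 79.1% of the DMSO level in 1205Lu, WM793 and A375, and the mitochondrial level was 79.6%, 68.2% and 81.6%. In absolute terms the cytosolic sum went from 159411 ± 17539 to 91019 ± 4910 (SD, n = 3) in 1205Lu, from 135077 ± 10200 to 108465 ± 11842 in WM793 and from 145075 ± 4777 to 114797 ± 3752 in A375. These sums are dominated by the highest genes and were not tested. Rescaled to the same total, the cytosolic level was 59.8%, 92.7% and 88.1% of DMSO and the mitochondrial level 83.0%, 78.7% and 90.7%.

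**Figure D3:**
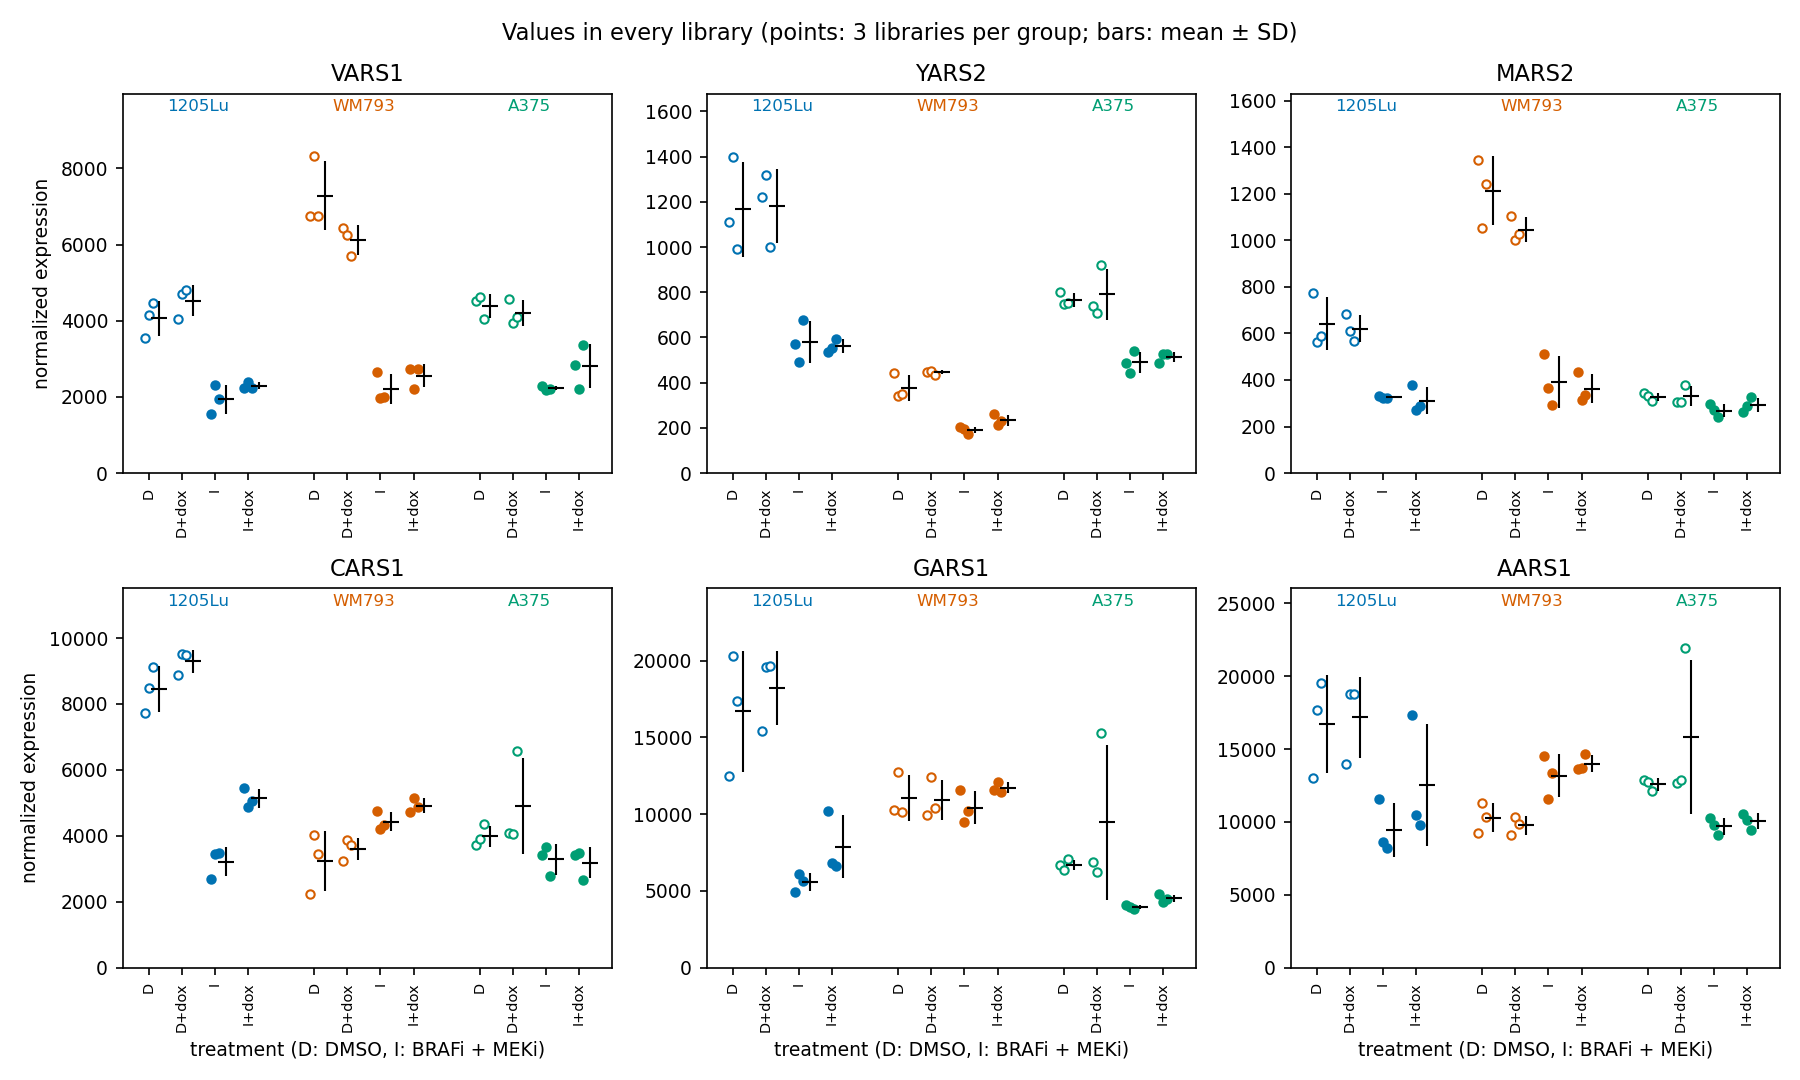
Normalized expression of VARS1, YARS2, MARS2, CARS1, GARS1 and AARS1 in every library (open points: DMSO or DMSO + DOX, filled points: BRAFi + MEKi or BRAFi + MEKi + DOX, crosses with bars: mean ± SD of 3). VARS1 and YARS2 are lower under the inhibitors in each line, GARS1 is lower in 1205Lu and A375 but not in WM793, and 1 A375 DMSO + DOX library stands at 15272 for GARS1 and 21940 for AARS1.

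The difference between lines in the inhibitor response was itself tested in a fit of all 36 libraries. Between 1205Lu and WM793, 14 members differed (14.5% of all genes), between 1205Lu and A375, 7 (14.7%), and between WM793 and A375, 10 (22.8%). Of the 14, the 7 with the more negative response in 1205Lu were all cytosolic: AARS1, CARS1, EPRS1, GARS1, MARS1, SARS1 and YARS1. CARS1 differed most, by -1.89 ± 0.24 on the log2 scale (limma adjusted p = 2.43e-06), then GARS1 by -1.48 ± 0.30 (0.000869) and MARS1, the methionine enzyme, by -1.42 ± 0.39 (0.0125). The other 7, QARS1, VARS1, MARS2, TARS2, VARS2, AIMP1 and AIMP2, had the more negative response in WM793. When libraries were rescaled to the same total, 9 of the 14 calls remained (14.5% of all genes were then called), the 7 cytosolic genes named first with QARS1 and AIMP1. The 7 calls between 1205Lu and A375 were 3 without A375 DMSO replicate 2, and 4 without 1205Lu BRAFi + MEKi replicate 3 or A375 BRAFi + MEKi replicate 1 or 2.

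AARS1 and CARS1 were the members called lower in 1205Lu and higher in WM793, against 0.917% of the 19420 genes tested in all 3 lines. The AARS1 fall in 1205Lu (limma adjusted p = 0.0162) was lost without DMSO replicate 2 or 3 or BRAFi + MEKi replicate 2 or 3 (0.0534 to 0.0708). MARS1 read 7264, 5518 and 9527 against 4695, 3737 and 3881 in 1205Lu, and 2697, 5178 and 3807 against 6877, 5016 and 5262 in WM793. The groups were separate in 1205Lu and overlapped in WM793, and the log2 fold changes were -0.83 ± 0.28 and 0.59 ± 0.23 (limma adjusted p = 0.0353 and 0.0553). The 1205Lu fall was lost without DMSO replicate 1 or 3 or BRAFi + MEKi replicate 2 or 3 (0.0762 to 0.147). Exons of MARS1 overlap DDIT3, a stress gene on the opposite strand, which had a log2 fold change of -0.58 (not called) in 1205Lu and 1.47 (called) in WM793, so their reads cannot be told apart.

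**Figure D4:**
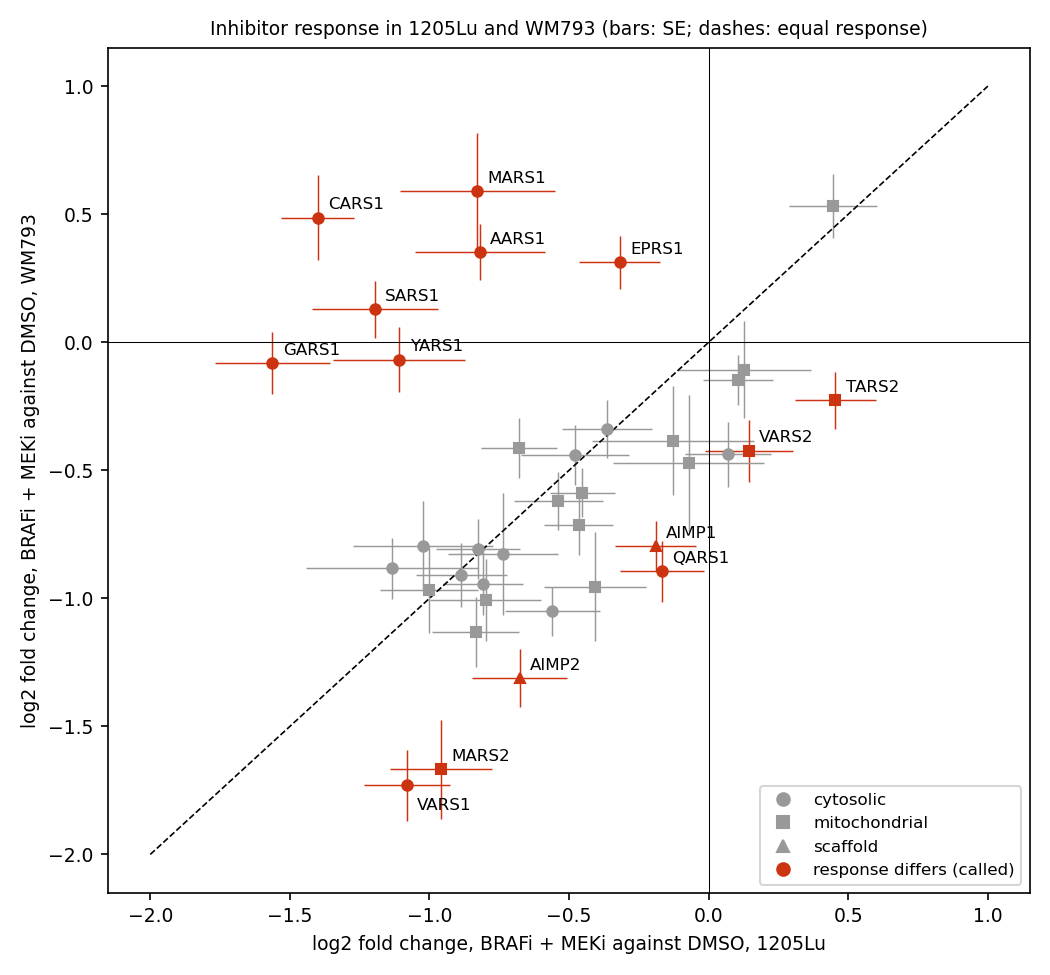
Log2 fold change of BRAFi + MEKi against DMSO in 1205Lu (x axis) and WM793 (y axis) for the 37 members (bars: SE, dashed line: equal response, named red points: difference between lines called by limma). CARS1, GARS1, MARS1, SARS1, AARS1, YARS1 and EPRS1 lie above the dashed line, and VARS1, MARS2, AIMP1, AIMP2, QARS1, TARS2 and VARS2 below it.

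ATF4 itself moved in opposite directions in these lines. It read 12637, 14182 and 13925 against 7153, 7161 and 4850 in 1205Lu and 5866, 7416 and 9147 against 12755, 13163 and 12493 in WM793, without overlap in either. The log2 fold changes were -1.11 and 0.80 (limma adjusted p = 0.00139 and 0.000334), and in A375 it was -0.39 (0.259). Of 31 ATF4 targets outside the synthetases, 19 fell and 1 rose in 1205Lu (median -1.25), among them GDF15 (-4.42), CHAC1 (-3.45), SLC6A9 (-2.83) and ASNS, asparagine synthetase (-2.57). In WM793, 5 fell and 11 rose of the 30 tested (median -0.11), with NUPR1 (4.55), STC2 (3.02) and ATF3 (2.49) among the rises and GDF15 (-2.77) among the falls. In A375, 15 fell and 2 rose (median -0.68). Of all genes, 14.4% fell and 16.5% rose in 1205Lu, 16.9% and 20.4% in WM793, and 19.0% and 20.5% in A375. The 5 falls in WM793 were thus near the share of all genes. The part of ATF4 in the synthetase responses was not tested.

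The 6 cytosolic genes whose promoters hold the TGATGNAA letters had a median log2 fold change of -0.82 in 1205Lu, 0.01 in WM793 and -0.19 in A375. The 10 cytosolic genes whose promoter entries lack them had -0.77, -0.86 and -0.19. In WM793, 3 of the 6 fell and 2 rose, against 7 falls and 1 rise among the 10. The members of both groups overlapped in each line, and no test was made on so few genes.

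Of 10 elongation factors of translation, 5, 10 and 8 fell in 1205Lu, WM793 and A375, and 1, 0 and 1 rose, where 14.4%, 16.9% and 19.0% of all genes fell. Their median log2 fold changes were -0.45, -1.09 and -0.47. EIF5A fell by 1.21, 1.27 and 1.10 on the log2 scale, and EEF1B2, a nucleotide exchange subunit of elongation factor 1, by 0.95, 1.72 and 1.06. Of 13 partners of tRNA charging, 4, 6 and 5 fell, 1, 1 and 3 rose and the others were not called, with medians of -0.02, -0.30 and -0.11. MYC fell in all 3 lines, by 2.07, 1.67 and 1.92. Of 12 MAPK output genes, 10, 11 and 11 fell, among them DUSP6, a phosphatase that acts on ERK, with log2 fold changes of -4.08 in 1205Lu, -2.25 in WM793 and -3.13 in A375. WARS1 fell in 1205Lu and WM793 while 4 and 8 of the 15 interferon-gamma response genes tested beside it rose and 1 and 0 fell. Of all genes tested, 3655 of 22144 rose in 1205Lu and 4512 of 22074 in WM793. In A375, where WARS1 was not called, 5 of the 15 interferon-gamma response genes rose and 2 fell. Of all genes there, 20.5% rose and 19.0% fell.

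With DOX present, the inhibitors again lowered more synthetases than they raised. In 1205Lu, 18 members fell and 1 rose between DMSO + DOX and BRAFi + MEKi + DOX (all genes: 13.2% lower and 15.1% higher). In WM793, 19 fell and 3 rose (15.1% and 16.7%), and in A375, 12 fell and 1 rose (14.8% and 16.2%). The member medians were -0.47, -0.54 and -0.25 on the log2 scale, and over all genes they were 0.12, 0.12 and 0.05. Rescaled to the same total, 14 fell and 1 rose in 1205Lu (10.5% and 17.8% of all genes), 17 fell and 6 rose in WM793 (11.1% and 22.5%), and 10 fell and 1 rose in A375 (11.6% and 20.7%). The median over all genes moved to 0.22, 0.27 and 0.17. The 19 calls in 1205Lu were 12 without DMSO + DOX replicate 3 or BRAFi + MEKi + DOX replicate 2 or 3. Of the falls, 16 in 1205Lu, 19 in WM793 and 8 in A375 were called both with and without DOX, against 10.0%, 12.9% and 13.1% of all genes. FARSB, KARS1, LARS1, VARS1 and YARS2 fell in all 3 lines in both arms (3.85% of the 19420 genes tested in all 3), though the KARS1 call in 1205Lu with DOX (limma adjusted p = 0.0417) was lost in 5 of the 6 fits that left out a library (0.0643 to 0.15), and without DOX in 4 of 6.

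GARS1 again fell furthest in 1205Lu, from 15411, 19594 and 19622 under DMSO + DOX to 10234, 6788 and 6653 (-1.23 ± 0.21, limma adjusted p = 0.000692). TARS1 followed, from 22796, 17803 and 18261 to 14129, 6983 and 7999 (-1.08 ± 0.25, limma adjusted p = 0.00594). In both genes replicate 1 of BRAFi + MEKi + DOX was the highest treated library. In WM793, MARS2 went from 1106, 1002 and 1026 to 433, 316 and 336 (-1.54 ± 0.19, limma adjusted p = 4.38e-05) and VARS1 from 6441, 6241 and 5689 to 2721, 2218 and 2732 (-1.26 ± 0.14, 1.38e-05). AARS1 rose there from 9092, 10344 and 9856 to 13626, 13685 and 14666 (0.52 ± 0.11, limma adjusted p = 0.00236), and this rise held whichever library was left out. The groups of MARS2, VARS1 and AARS1 did not overlap. SARS1 (0.35) and EPRS1 (0.37) also rose in WM793, in 1 and 4 of the 6 fits that left out a library.

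A pair of libraries stood apart from their replicates in the cytosolic synthetases. In A375 DMSO + DOX replicate 3, 10 of 19 cytosolic genes read at least 1.5 times the mean of the other 2 libraries of the group, none of the 16 mitochondrial genes did, and 6.82% of 12215 genes with a group mean of at least 100 did. In 1205Lu BRAFi + MEKi + DOX replicate 1, 8 cytosolic and 0 mitochondrial genes did, against 11.8% of 12081 genes. No other library had more than 2 such cytosolic genes. Over all genes, replicate 1 also had the highest share in the other 1205Lu groups, with 7.79% in DMSO, 8.67% in DMSO + DOX and 6.59% in BRAFi + MEKi. In the A375 library AARS1 read 21940 against 12655 and 12889, GARS1 15272 against 6884 and 6238, and SARS1 13809 against 5617 and 5709. In the 1205Lu library AARS1 read 17345 against 10495 and 9772, and YARS1 5393 against 2666 and 2773. AARS1, GARS1, IARS1, MARS1, SARS1, WARS1 and YARS1 stood high in both libraries.

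ATF4 targets stood high in the same libraries. In the A375 library 26 of 31 read at least 1.5 times the other replicates, and in the 1205Lu library 21 of 31, whereas no other library had more than 6. Chosen after their values were seen, CHAC1 stood at 20.6 and 12.1 times, TRIB3 at 5.42 and 7.07 times and ASNS at 5.6 and 4.01 times the other replicates, and ATF4 itself at 2.02 and 1.53 times. Of the 6 cytosolic genes with the TGATGNAA letters, 5 stood high in the A375 library and 4 in the 1205Lu library, against 4 and 3 of the 10 without them. YARS1, which has no promoter entry, stood high in both. MARS1 is counted among the 5 and the 4, and its reads cannot be told apart from those of DDIT3, which stood at 1.97 and 6.39 times. Culture conditions of single libraries are not given, and what set these 2 apart was not tested.

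**Figure D5:**
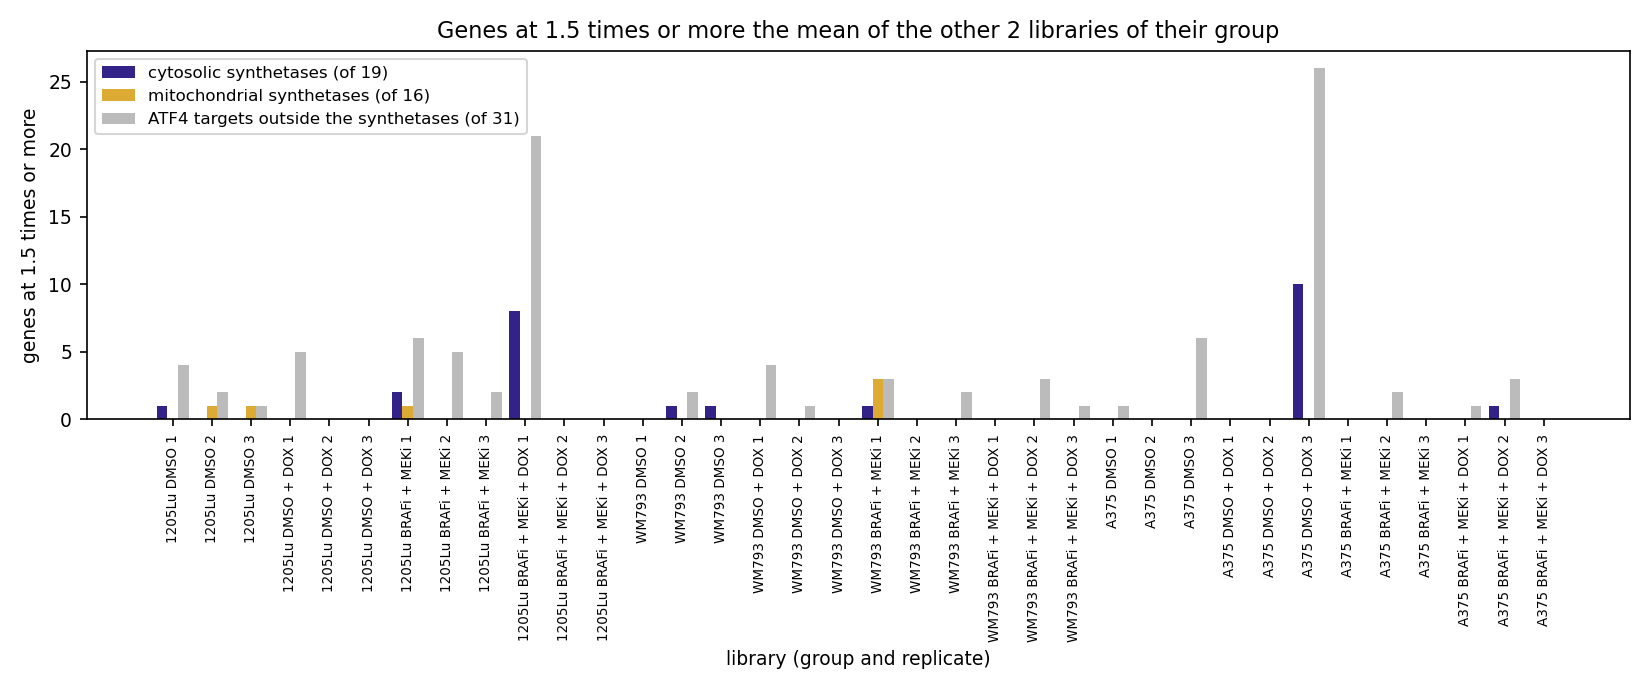
Number of genes in each library at 1.5 times or more the mean of the other 2 libraries of the same group (bars: cytosolic synthetases of 19, mitochondrial synthetases of 16 and ATF4 targets of 31). A375 DMSO + DOX replicate 3 has 10 cytosolic genes and 26 ATF4 targets, 1205Lu BRAFi + MEKi + DOX replicate 1 has 8 and 21, and no mitochondrial gene is counted in either.

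These libraries enter the comparisons with DOX. Without A375 DMSO + DOX replicate 3, 11 members fell and 1 rose in A375, and CARS1 lost its call. GARS1 then fell by 0.54 with a limma adjusted p of 0.00109, against -0.95 ± 0.24 and 0.00752 with the library (DMSO + DOX 6884, 6238 and 15272, BRAFi + MEKi + DOX 4786, 4285 and 4443). FARSB went from 1698, 1508 and 1376 to 854, 708 and 1094 in that line (-0.80 ± 0.15, limma adjusted p = 0.000921). When 1205Lu BRAFi + MEKi + DOX replicate 1 was left out, 19 members fell and 1 rose in 1205Lu, AARS1 and IARS1 were gained and KARS1 was lost.

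Few synthetases, like few genes of any kind, were called for DOX, which does not show that the rest were unchanged. The comparison addresses what DOX, together with the NR2F1 it induces, does to these genes, under the inhibitors and without them. Under BRAFi + MEKi, 1 member was called in 1205Lu (0.334% of all genes), 0 in WM793 (0.204%) and 0 in A375 (1.52%) by limma, and 3, 4 and 1 members had an unadjusted p under 0.05. Under DMSO none was called in 1205Lu (0.00903% of all genes), WM793 (0.512%) or A375 (0.0492%) by limma, with 1, 3 and 3 members at an unadjusted p under 0.05. The called member was CARS1 in 1205Lu, which read 2704, 3458 and 3473 under BRAFi + MEKi and 5448, 4888 and 5070 with DOX. Its groups did not overlap, and the log2 fold change was 0.69 ± 0.13 with a limma adjusted p of 0.048. The call stood in 1 of the 6 fits that left out a library, where the adjusted p reached 0.198, and was lost when 0.1 was added in place of 1 (0.0508), with all genes kept (0.0582) or libraries rescaled (0.0511).

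Under BRAFi + MEKi the DOX effects of the members ran from -0.12 to 0.69 in 1205Lu, -0.19 to 0.53 in WM793 and -0.15 to 0.31 in A375 on the log2 scale, with medians of 0.14, 0.08 and 0.07 where the medians of all genes were -0.01, 0.00 and 0.00. Of 37 members, 30, 29 and 25 had an effect above 0, as did 47.6%, 50.3% and 48.0% of all genes. With 1 library left out, the count ran from 27 to 29 in 1205Lu (27 without BRAFi + MEKi + DOX replicate 1), and its lowest value in WM793, 19, came when BRAFi + MEKi replicate 2 was dropped. All libraries with DOX lay above all without it for 7, 4 and 2 members (6.06%, 6.94% and 8.28% of all genes) and below them for 1, 1 and 0 (6.53%, 7.04% and 7.13%), so the counts in WM793 and A375 were near the share of all genes. Under DMSO, 28, 16 and 20 members had a DOX effect above 0. Of all genes, 47.0%, 50.2% and 48.3% did so in 1205Lu, WM793 and A375, so the counts in WM793 and A375 were near the share of all genes. The DMSO libraries with DOX lay wholly above for 1, 3 and 2 members (5.35%, 6.8% and 5.55% of all genes). They lay wholly below for 2, 6 and 1 (6.95%, 6.48% and 6.12%).

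After CARS1 in 1205Lu came WARS1, from 5992, 2726 and 2701 to 8597, 4706 and 4211 (0.65, limma adjusted p = 0.521), and YARS1, from 2381, 2408 and 2314 to 5393, 2666 and 2773 (0.53, 0.491). The highest library of each was BRAFi + MEKi + DOX replicate 1. The largest effect in WM793 was that of MARS1, from 6877, 5016 and 5262 to 6673, 9055 and 9029 (0.53, limma adjusted p = 0.574), and in A375 that of VARS1, from 2282, 2193 and 2208 to 2846, 2207 and 3354 (0.31, 0.417). The groups overlapped for WARS1, MARS1 and VARS1 and not for YARS1. Under DMSO the largest in each line were FARSA at -0.44 in 1205Lu and -0.56 in A375, and MARS1 at 0.52 in WM793 (limma adjusted p = 0.705, 0.629 and 0.466).

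Whether the DOX effect differed between BRAFi + MEKi and DMSO was tested as an interaction. No member was called by limma in 1205Lu (0.0% of all genes), WM793 (0.0%) or A375 (0.46%), and 2, 3 and 0 members had an unadjusted p under 0.05. CARS1 had the largest value in 1205Lu, at 0.55 (limma adjusted p = 0.798), since under DMSO its libraries read 8881, 9505 and 9482 with DOX and 7724, 8486 and 9125 without. Nor was any member called by limma for a DOX effect under the inhibitors that differed between lines: of all genes, 0.138% differed from 1205Lu to WM793, 0.179% from 1205Lu to A375 and 0.881% from WM793 to A375, and 1, 2 and 0 members had an unadjusted p under 0.05.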

How the data were processed

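RNA-Seq libraries (TruSeq RNA Library Prep Kit v2) were made from 3 lines under 4 treatments with 3 replicates each. The authors aligned reads with STAR to GRCh38 (GENCODE annotation), quantified genes with RSEM and normalized with DESeq2. The signal values they deposited give a gene's normalized expression, on a scale that the authors set across all libraries. They are not counts, so the count test planned as the other option was not used, and depth is known only from the commonest low value. Intervals from counts were therefore not given.

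Groups came from the labels. limma 3.58.1 (R 4.3.3) was fitted with a mean-variance trend to log2(value + 1), on the 12 libraries of a line or, between lines, on all 36. A gene was tested where some group averaged 1 or more (22144 in 1205Lu, 22074 in WM793, 24370 in A375 and 26779 in the joint fit), with Benjamini-Hochberg adjustment and a threshold of 0.05. P-values measure the spread between these replicates. The fits were also run on simulated libraries with planted changes. Those libraries were drawn independently, without a replicate effect or a library that stood apart, so they do not show how the fits behave with either. Descriptions and figures used Python 3.11.15, numpy 2.4.6, pandas 2.3.3 and matplotlib 3.10.9. Gene models for lengths and overlaps came from GENCODE 44, and promoters from RefSeq (GRCh38.p14).

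The members and lists were chosen with earlier results of these data known. By rule, any member could be named, library values were given for up to 6 of the largest called changes per comparison or the largest where none was called, and non-members were NR2F1, DUSP6, ATF4, MYC and up to 4 of the largest called changes of each list. Library values of further members (HARS1, HARS2 and those that differed between lines) were added after their values were seen. Alternatives were a pseudocount of 0.1, no filter, libraries rescaled to the same total, a fit of just the compared groups, a block for the replicate number, and each library left out.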

Additional observations from a re-analysis of the deposited data

Results flagged for a closer look

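In groups of 3 libraries no single library was tested as far from the others. What drew attention was a difference between lines in the response to BRAFi + MEKi without DOX, by limma's interaction contrast over all 36 libraries, and 31 such differences were called among the members. They were 14 of 37 members between 1205Lu and WM793, 7 between 1205Lu and A375 and 10 between WM793 and A375, where 14.5%, 14.7% and 22.8% of all genes were called, so the last 2 counts were near the share of all genes. All are log2 differences, and their SEs ran from 0.15 to 0.39 and their adjusted p from 2.43e-06 to 0.0479.

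Between 1205Lu and WM793 (response in 1205Lu minus that in WM793), the response was more negative in 1205Lu for AARS1 (-1.17), CARS1 (-1.89), EPRS1 (-0.63), GARS1 (-1.48), MARS1 (-1.42), SARS1 (-1.32) and YARS1 (-1.04). It was more negative in WM793 for QARS1 (0.73), VARS1 (0.65), MARS2 (0.71), TARS2 (0.68), VARS2 (0.57), AIMP1 (0.60) and AIMP2 (0.64).

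Between 1205Lu and A375 (1205Lu minus A375), the response was more negative in 1205Lu for CARS1 (-1.12), HARS1 (-0.71), SARS1 (-1.03), TARS1 (-0.95), CARS2 (-0.72) and AIMP2 (-0.65). It was more negative in A375 for TARS2 (0.63).

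Between WM793 and A375 (WM793 minus A375), the response was more negative in WM793 for HARS1 (-0.84), QARS1 (-0.81), VARS1 (-0.75), EARS2 (-0.67), MARS2 (-1.38), VARS2 (-0.80), AIMP1 (-0.67) and AIMP2 (-1.28). It was more negative in A375 for AARS1 (0.73) and CARS1 (0.77).

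Each of the 12 libraries of a pair of lines was left out in turn. The calls of VARS1, MARS1, MARS2, VARS2 and AIMP2 (1205Lu against WM793), SARS1, TARS1, TARS2 and AIMP2 (1205Lu against A375) and AARS1 and CARS1 (WM793 against A375) were lost in at least 1 such fit, and the other calls in none. Line and medium cannot be told apart where A375 is involved.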

How the results depend on the processing

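Of 219 member calls, 217 were kept when 0.1 replaced the pseudocount of 1, 206 when low genes stayed in and 192 after rescaling each library to 1 common total, and in 1500 fits of a called member with 1 library left out the call was kept in 1271. No called member changed sign in any of these. Cytosolic sums rescaled to the same total were 59.8%, 92.7% and 88.1% of control without DOX in 1205Lu, WM793 and A375. With DOX they were 66.5%, 104.0% and 81.0%, against 61.2%, 91.9% and 73.7% before rescaling, so WM793 turned from below to above control. The A375 control with DOX includes replicate 3, with a cytosolic sum of 212161 against 145551 and 136617. Rescaled mitochondrial sums were 83.0%, 78.7% and 90.7% without DOX and 86.7%, 76.7% and 96.4% with DOX, in the same order of lines. The difference in response between 1205Lu and WM793 gave 9 members when rescaled instead of 14. In 1205Lu the single DOX call under BRAFi + MEKi became 0 with a pseudocount of 0.1, low genes kept, rescaled or with only the 6 libraries compared, and 0 to 1 when libraries were left out. There the inhibitor response with DOX gave 12 to 20 members, lowest without DMSO + DOX replicate 3 or BRAFi + MEKi + DOX replicate 2 or 3. The difference in response between 1205Lu and A375 gave 3 to 7, lowest without A375 DMSO replicate 2. The causes were not tested. Replicate numbers were not taken to pair libraries in the main fits. Same-numbered libraries deviated together with r from 0.004 to 0.274, always above 0. It was over 0.1 in 8, 5 and 5 of 18 pairs in 1205Lu, WM793 and A375. These values do not show that libraries of the same replicate number were unrelated. For BRAFi + MEKi against BRAFi + MEKi + DOX all 3 pairs were over 0.1 in 1205Lu (0.109 to 0.274) and WM793 (0.105 to 0.251), and there the replicate block gave the same 1 and 0 DOX calls, with CARS1 at an adjusted p of 0.0131. With the replicate block, the inhibitor response without DOX gave 26, 28 and 16 members in 1205Lu, WM793 and A375 instead of 25, 28 and 15, with DOX 21, 24 and 13 instead of 19, 22 and 13, and 215 of the 219 calls were kept. Depth limits the lowest genes and the shallow WM793 DMSO replicate 1 most.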
